A study of Mus musculus with 18 samples.

Results

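Total RNA from mouse embryonic stem (ES) cells was reverse transcribed with not-so-random (NSR) primers alone or with oligo(dT) primers alone, and the 2 primer sets were compared gene by gene. The 6 libraries described here are 3 made with NSR primers and 3 made with oligo(dT), of 18 in the series. They were chosen by their primer, not by a measured value. Every one of the 6 started from 10 pg of diluted total RNA of 5G6GR ES cells, a line that carries an inducible Gata6 transgene, kept without feeder cells in serum and leukemia inhibitory factor under puromycin and blasticidin. The cDNA was made by RT-RamDA and the libraries were amplified by 17 cycles of PCR. The other 9 RT-RamDA libraries used random hexamers (N6), N6 with oligo(dT), or NSR with oligo(dT), 3 libraries each, and 3 bulk libraries were made from 200 ng of the same kind of RNA after ribosomal RNA depletion, with 7 cycles of PCR. The 3 libraries of a primer set carry the letters A to C. The labels do not say whether they came from separate cultures or RNA preparations, so p-values measure the spread between libraries, which may be technical. The number in the library titles differs between the primer sets and is constant within each, so any effect of that position and of the primer cannot be told apart.

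Oligo(dT) anneals to poly(A), which most mRNAs and many long non-coding RNAs carry at the 3′ end, and cDNA synthesis then runs from that end toward the 5′ end. NSR primers are short primers of mixed sequence from which those matching ribosomal RNA (rRNA) are left out, so they can start cDNA along the body of an RNA whether or not it has a tail. RT-RamDA copies the RNA repeatedly by strand displacement during reverse transcription. Replication-dependent histone mRNAs end in a stem-loop instead of a poly(A) tail, and RNA polymerase III products, such as 7SK, the RNA of the signal recognition particle and the RNA subunits of RNase P and RNase MRP, also end without one.

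The sequences below show RNA ends and A-rich stretches of some of the RNAs compared, and their part in the differences was not tested. They were read from the GENCODE vM21 transcripts (GRCm38, the same assembly as mm10), in which the most abundant transcript of 13062 of 15682 tested genes (83.3%) was found with the same version and length. The first set is the stem-loop of 4 histone mRNAs, 5′ to 3′, with the stem of 6 bases, the loop of 4 bases and the closing stem in capitals:
Hist2h2aa1: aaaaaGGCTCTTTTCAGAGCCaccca
Hist1h2bk: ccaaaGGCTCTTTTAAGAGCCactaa
Hist1h3b: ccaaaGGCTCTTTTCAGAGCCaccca
Hist1h2ap: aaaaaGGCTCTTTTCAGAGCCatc
They lie at chr3:96246027-96246052 (+ strand), chr13:22036295-22036320 (+ strand), chr13:23752815-23752840 (+ strand) and chr13:21833026-21833049 (- strand). The search was for a stem of 6 bases that begins with GGC, any loop of 4 bases and the reverse complement of the stem, on the sense strand within the last 100 bases of the annotated transcript. It found 16 of 46 replication-dependent histone transcripts with a sequence, none of 9 replacement histone transcripts, and 19 of 15940 protein-coding transcripts in all (0.119%). The second set is the window of 20 bases richest in A in 5 RNAs, with its longest run of A in capitals:
mt-Rnr1: aaaagaatcaaacatAAAAA
mt-Rnr2: AAAAAAAcaacaaaatcaaa
Malat1: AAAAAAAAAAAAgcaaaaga
Rn7sk: AAgactccagacacatccaa
Rpph1: tcatAAcccaattcagacta
These windows hold 15, 16, 17, 9 and 8 A. They lie at chrM:725-744 (+ strand), chrM:1488-1507 (+ strand), chr19:5795980-5795999 (- strand), chr9:78175337-78175356 (- strand) and chr14:50807461-50807480 (- strand). The third is the longest A run of Gm38312, an RNA of the class TEC (a gene model still awaiting experimental support) inside an intron of Sh3bp4, at chr1:89097104-89097132 (+ strand):
Gm38312: atAAAAAAAAAAAAAAAAAAAAAAAAAga
That run has 25 A and begins near the 5′ end of the 1746-base transcript.

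The 6 libraries held 8025566 to 10134741 estimated counts each, and the 18 held 5333546 to 10234690. The table lists 115125 transcript entries, summed here into 47643 genes, of which 28335 had a count in at least 1 of the 6 libraries. Levels are given as CPM, the count scaled to a common library size, after TMM scaling, which sets the bulk of genes equal between libraries. With library totals alone as the scale, the median log2 fold change over all tested genes moved from 0.16 to -0.58, and results whose direction depends on that choice are marked where they appear. Log2 fold changes are NSR minus oligo(dT), with positive values higher with NSR primers. Of the markers that define the labelled cell type, Pou5f1, Nanog and Sox2, transcription factors of the pluripotent state, were at 94.3 CPM or more in all 6 libraries.

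The kinds of RNA in the libraries differed between the primers. Transcripts annotated as protein-coding took 42.3, 43.6 and 43.3% with NSR primers and 81.0, 81.3 and 80.9% with oligo(dT). The 2 sets did not overlap, and the same share was 68.8 ± 0.597% in the bulk libraries (SD, n = 3). What NSR primers took up instead was mainly ribosomal. The rRNA biotype held 14.4 ± 0.897% with NSR primers and 0.277 ± 0.0162% with oligo(dT) (SD, n = 3 each), and mitochondrial rRNA held 13.7 ± 0.497% with NSR primers and 5.95 ± 0.195% with oligo(dT). LincRNA entries took 16.4 ± 0.243% with NSR primers and 1.20 ± 0.0322% with oligo(dT), and most of this was Gm42418 and Gm26917, which held 11.3 ± 0.102% and 3.89 ± 0.169% of counts with NSR primers against 0.540 ± 0.0139% and 0.156 ± 0.0122% with oligo(dT). Together with the rRNA biotypes these lincRNA genes held 43.3 ± 0.571% with NSR primers and 6.92 ± 0.178% with oligo(dT). The loci treated as rRNA-like below (Lars2, Mir6236, AA474408 and Gm15662) are not in that sum. They went the other way, with 11.1 ± 0.353% with NSR primers and 16.5 ± 0.627% with oligo(dT). Most of this was Lars2, which is annotated as protein-coding. Each of these differences separated the 3 libraries of one set from the 3 of the other, with an exact two-sided permutation p of 0.1, the smallest that 3 against 3 can give.

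**Figure D1:**
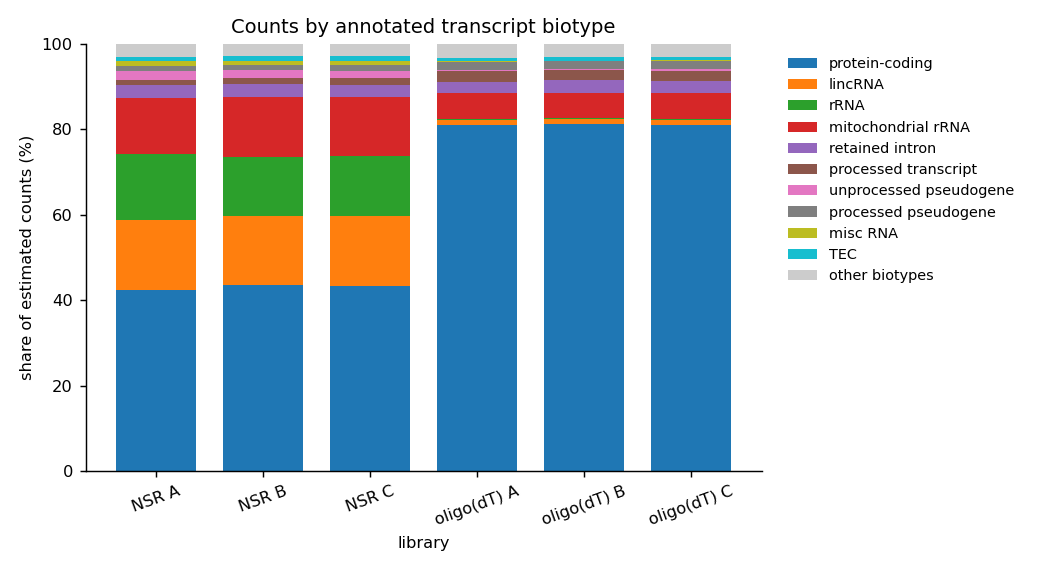
Share of estimated counts (vertical axis, percent) by annotated transcript biotype in each of the 3 NSR and 3 oligo(dT) libraries, stacked to 100%. Protein-coding transcripts fill 42.3 to 43.6% of the NSR bars and 80.9 to 81.3% of the oligo(dT) bars, and the rRNA and lincRNA blocks are visible almost only in the NSR bars.

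Some minor classes differed as well. The misc_RNA class, which holds 7SK and the signal recognition particle RNA, held 1.06 ± 0.0569% with NSR primers and 0.111 ± 0.0211% with oligo(dT). Ribozyme RNAs held 0.125 ± 0.0213% with NSR primers and 0.00196 ± 0.000447% with oligo(dT). Processed pseudogenes, intronless copies of mRNAs, took 1.25 ± 0.0323% with NSR primers and 1.88 ± 0.0193% with oligo(dT). Lars2, the mitochondrial leucyl-tRNA synthetase, was the most abundant protein-coding gene of both sets, at 9.23 ± 0.135% with NSR primers and 15.9 ± 0.591% with oligo(dT), while it held 0.00221 ± 0.000551% in the bulk libraries. On the TMM scale Lars2 did not pass the test between the primers (log2 fold change -0.03 ± 0.04, edgeR adjusted p = 0.74).

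Of 15682 genes tested by edgeR's quasi-likelihood test (fitted over the 15 RT-RamDA libraries, Benjamini-Hochberg adjusted p under 0.05), 2084 were called, or 13.3%. Of these, 1210 were higher with NSR primers (7.72% of genes tested) and 874 lower (5.57%). With library totals alone as the scale, 713 were higher and 2721 lower, and with totals taken after removal of rRNA-annotated genes, mitochondrial genes and 4 loci treated as rRNA-like (Lars2, Mir6236, AA474408 and Gm15662), 847 and 1725. Gm42418 and Gm26917 stayed in these totals. A fit on the 6 libraries alone called 1140 genes and DESeq2 called 3357. Among protein-coding genes 12.9% were called, with 728 higher (6.27%) and 765 lower (6.59%). Calls in several non-coding classes went toward NSR primers. LincRNA genes had 74 higher and 3 lower of 559, antisense genes 47 and 4 of 406, and misc_RNA genes 16 and 0 of 39. Other classes did not, with 47 higher and 44 lower of 592 processed pseudogenes and 1 and 2 of 15 mitochondrial tRNA genes. The counting strand is not given in the sources used here, so reads of an antisense gene and of its partner may not have been told apart.

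**Figure D2:**
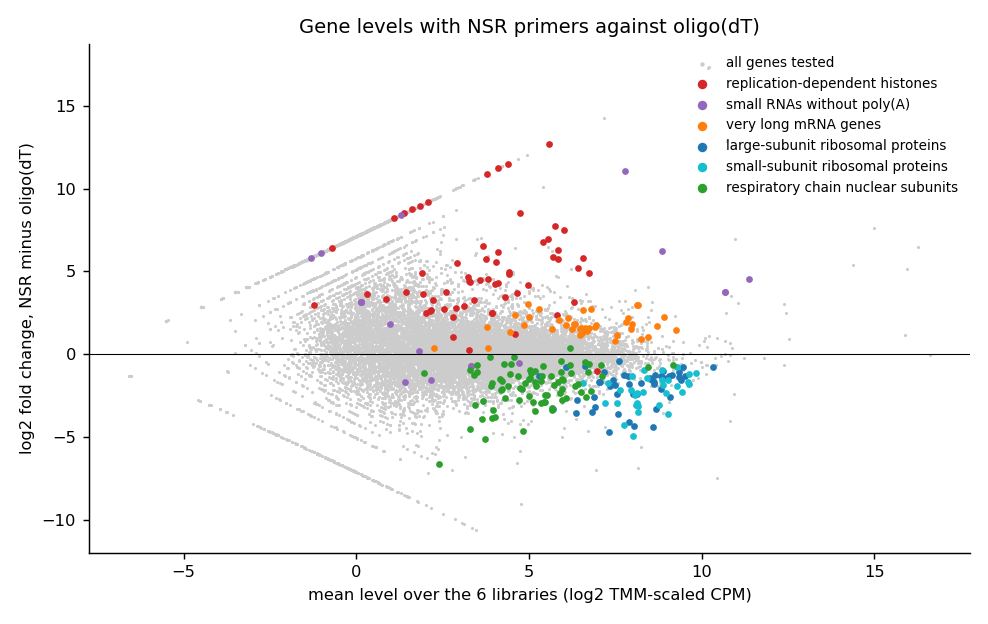
Log2 fold change, NSR minus oligo(dT) (vertical axis), against the mean level over the 6 libraries in log2 TMM-scaled CPM (horizontal axis) for all tested genes in grey and 6 gene lists in colour. Of the replication-dependent histones 61 of 62 lie above 0 and of the small RNAs without poly(A) 14 of 19, while below 0 lie 47 of 47 large-subunit and 32 of 32 small-subunit ribosomal protein genes and 78 of 79 respiratory genes, and the straight edges are genes at 0 counts in one primer set, whose fitted value depends on a prior count.

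Replication-dependent histone genes, which supply the nucleosome core and linker proteins made in S phase, were the list with the most genes higher with NSR primers. Of 62 tested, 44 were higher, 1 was lower and 17 did not pass the test, and the median log2 fold change was 4.50 (3.74 with library totals alone). Counting genes that were at 0 with oligo(dT) at their lower bound, it was 4.43. Hist1h1d, a linker histone, was at 196, 198 and 228 CPM with NSR primers and 3.88, 8.75 and 7.78 CPM with oligo(dT) (log2 fold change 4.92, SE 0.25, edgeR adjusted p = 5.1e-10). Hist1h1c, another linker histone, was at 104, 129.5 and 104 CPM with NSR primers and 2.33, 2.69 and 1.27 CPM with oligo(dT) (log2 fold change 5.74, SE 0.28, edgeR adjusted p = 3.3e-10). All 3 NSR libraries stood far above all 3 oligo(dT) libraries for both. Hist1h1a was at 111, 110.4 and 116 CPM with NSR primers and 0.453, 0 and 3.73 CPM with oligo(dT) (log2 fold change 6.32, SE 0.76, edgeR adjusted p = 2.2e-05).

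Core histones behaved likewise. Hist2h2aa1, an H2A gene, was at 153, 109.6 and 120.0 CPM with NSR primers and 2.07, 0 and 0 CPM with oligo(dT) (log2 fold change 7.51, SE 0.85, edgeR adjusted p = 1.2e-05), and Hist1h4d, an H4 gene, at 75.7, 82.7 and 94.6 CPM with NSR primers and 0.0647, 0.375 and 1.83 CPM with oligo(dT) (log2 fold change 6.77, SE 0.63, edgeR adjusted p = 1.1e-06). The H2B gene Hist2h2bb was at 90.8, 95.8 and 102 CPM with NSR primers and 0 in every library with oligo(dT), at least 505-fold higher with NSR primers when each oligo(dT) library is set to a floor of 3 counts. Every 31-base word of the Hist2h2bb sequence also occurs in Gm20628, an antisense gene, and every such word of Hist2h2aa1 in Gm20633, so the level of each of these histone genes is uncertain. By family, the summed level of the H1 genes was 675 ± 14.4 CPM with NSR primers and 27.6 ± 3.52 CPM with oligo(dT), of the H2B genes 832 ± 14.5 CPM with NSR primers and 35.2 ± 10.5 CPM with oligo(dT), of the H3 genes 429.7 ± 84.8 CPM with NSR primers and 16.3 ± 9.71 CPM with oligo(dT) and of the H4 genes 289 ± 34.5 CPM with NSR primers and 20.1 ± 5.41 CPM with oligo(dT) (SD, n = 3 each). H2A was the family with the smallest ratio, 452 ± 67.9 CPM with NSR primers and 204 ± 14.9 CPM with oligo(dT), or 2.22-fold. The exception there was Hist1h2ap, whose stem-loop is printed above and which was lower with NSR primers, at 106, 72.5 and 70.2 CPM with NSR primers and 184, 164 and 159.6 CPM with oligo(dT) (log2 fold change -1.03, SE 0.18, edgeR adjusted p = 0.00085). Of its 31-base words 93.4% occur in Hist1h2ao as well, so which copy the counts belong to is uncertain. Of the 14 tested histone genes in which the stem-loop was found, 7 were higher and 1 lower, and of 25 with a sequence but no match in that window, 21 were higher and none lower.

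Replacement histone genes, whose mRNAs are polyadenylated and made throughout the cell cycle, went the other way. Of 10 tested, 5 were lower with NSR primers and none higher, with a median of -0.96 (-1.72 with library totals alone). H2afz, the H2A.Z gene, was at 137, 137 and 189 CPM with NSR primers and 542, 633 and 584 CPM with oligo(dT) (log2 fold change -1.92, SE 0.15, edgeR adjusted p = 1.1e-07). H3f3a, an H3.3 gene, was at 133, 128 and 152 CPM with NSR primers and 492, 465 and 437 CPM with oligo(dT) (log2 fold change -1.76, SE 0.12, edgeR adjusted p = 2.8e-08). H3f3b, the second H3.3 gene, H2afv and Cenpa, the centromeric H3 variant, were also lower, at -1.31 ± 0.14, -1.47 ± 0.31 and -1.61 ± 0.32 (log2 fold change ± SE). Summed over the tested genes of each list, replacement histones were at 554 ± 43.9 CPM with NSR primers and 1616 ± 24.0 CPM with oligo(dT), while the replication-dependent genes were at 2673 ± 184 CPM with NSR primers and 302 ± 36.3 CPM with oligo(dT) (SD, n = 3 each).

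Several small structured RNAs made without a poly(A) tail were higher with NSR primers. Rn7sk, the 7SK RNA that holds the elongation factor P-TEFb inactive, was at 5101, 4625 and 5605 CPM with NSR primers and 238, 204 and 215 CPM with oligo(dT) (log2 fold change 4.54, SE 0.09, edgeR adjusted p = 3.2e-15). Rmrp, the RNA of RNase MRP, was at 1073, 730.5 and 934 CPM with NSR primers and 14.4, 10.1 and 11.5 CPM with oligo(dT) (log2 fold change 6.25, SE 0.19, edgeR adjusted p = 9.3e-13). Rpph1, the RNA of RNase P, was at 519.9, 354 and 449.6 CPM with NSR primers and 0.518, 0.0625 and 0 CPM with oligo(dT) (log2 fold change 11.07, SE 0.50, edgeR adjusted p = 1.1e-10). For each of these all 3 NSR libraries stood above all 3 oligo(dT) libraries. Their values are uncertain, since 72.8% of the 31-base words of Rn7sk, 37.5% of those of Rmrp and 70.2% of those of Rpph1 occur in other genes, the last all in Ccnb1ip1. The signal recognition particle RNA gene Rn7s1 was at 3173, 2881 and 3003 CPM with NSR primers and 294, 182 and 195 CPM with oligo(dT) (log2 fold change 3.75, SE 0.15, edgeR adjusted p = 3.6e-11). Rn7s2 has an identical sequence and the same counts, so the 2 genes cannot be told apart. In the list, 8 of 19 tested were higher and none lower, with a median of 3.13 (2.40 with library totals alone) and of 3.13 with genes at 0 in one set taken at their bound. Terc, the telomerase RNA, was at 7.34, 7.12 and 0.133 CPM with NSR primers and 0 in every library with oligo(dT), at least 25.5-fold higher on the floor of 3 counts per library, although 1 of the NSR libraries was near 0. Rnu1a1, a gene of the spliceosomal U1 RNA, was at 30.9, 21 and 12.6 CPM with NSR primers and 38.6, 24.5 and 28.7 CPM with oligo(dT) and did not pass the test (log2 fold change -0.51, SE 0.53, edgeR adjusted p = 0.6). In all, 11 of the list did not pass, 5 of them below 0. The snRNA class, which holds the spliceosomal RNAs, took less of the counts with NSR primers, at 0.0479 ± 0.0177% with NSR primers and 0.117 ± 0.0262% with oligo(dT) (SD, n = 3 each; no overlap, exact two-sided permutation p = 0.1), with 0 genes called higher and 2 lower of 35.

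Guide RNAs of RNA modification, the snoRNAs and scaRNAs, were near the limit of detection, at 101 ± 14.8 CPM with NSR primers and 37.9 ± 5.10 CPM with oligo(dT) over 36 tested genes. Of these 7 were higher and 1 lower, beside 7.72% and 5.57% of all genes tested. The median was 1.54 (0.82 with library totals alone), and 1.22 with genes at 0 in one set taken at their bound. Scarna10 was at 11.3, 10.3 and 9.42 CPM with NSR primers and 0 in every library with oligo(dT), at least 54.3-fold higher. Snord22, which lies in an intron of Snhg1 and whose sequence is contained in an Snhg1 transcript, was at 17.7, 15 and 14.7 CPM with NSR primers and 0.518, 0.125 and 0.823 CPM with oligo(dT) (log2 fold change 4.98, SE 0.97, edgeR adjusted p = 0.0025). Snord47 was the gene called lower, at 0 in every library with NSR primers and 4.34, 0.750 and 5.82 CPM with oligo(dT), and its call was lost on leaving out any of 5 libraries. The spliced host RNAs of snoRNAs, which are polyadenylated and turned over by nonsense-mediated decay, had 4 lower and 1 higher of 14, with a median of -0.81 (-1.57 with library totals alone). Gas5 was at 106, 85.5 and 88.9 CPM with NSR primers and 162, 197 and 197 CPM with oligo(dT) (log2 fold change -0.99, SE 0.17, edgeR adjusted p = 0.0008), and Snhg1 at 106, 85.3 and 94.8 CPM with NSR primers and 134, 165 and 165 CPM with oligo(dT) (log2 fold change -0.70, SE 0.19, edgeR adjusted p = 0.025). Snhg6 and Epb41l4aos were also lower, at -2.32 ± 0.55 and -3.14 ± 0.85, but the calls of Snhg1, Snhg6 and Epb41l4aos were lost on leaving out some single libraries. Snhg7, whose entry in the table is a snoRNA-class model of 139 bases and not the spliced host, was called higher on 0.969 to 4.25 CPM with NSR primers and 0 with oligo(dT), at least 13.3-fold.

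Among long non-coding RNAs, many of which stay in the nucleus or act on chromatin, 10 of 21 tested were higher with NSR primers and none lower. The remaining 11 did not pass the test, 3 of them below 0, and with library totals alone 7 were called, all higher. The list had a median of 1.30 (0.52 with library totals alone). Malat1, a nuclear speckle RNA whose 3′ end is a triple helix and not a poly(A) tail, was at 4077, 4097 and 3703 CPM with NSR primers and 38.0, 18.7 and 39.8 CPM with oligo(dT) (log2 fold change 6.94, SE 0.23, edgeR adjusted p = 2.6e-12). Its transcript holds the run of 12 A in the window printed above, which ends 290 bases before the annotated end. That end is the one of the gene model, and where the run lies relative to the mature 3′ end was not examined. Neat1, the scaffold of paraspeckles, was at 227, 255 and 251 CPM with NSR primers and 67.7, 46.8 and 40.2 CPM with oligo(dT) (log2 fold change 2.24, SE 0.21, edgeR adjusted p = 1.4e-06). Xist, the RNA that coats the inactive X chromosome, was at 114, 75.6 and 86.3 CPM with NSR primers and 1.75, 0 and 1.27 CPM with oligo(dT) (log2 fold change 6.50, SE 0.87, edgeR adjusted p = 7.3e-05). As the counting strand is not given, RNA of the opposite strand may be part of the Xist counts. Rian, an imprinted snoRNA and miRNA host, was at 202, 211 and 190.5 CPM with NSR primers and 38.3, 16.4 and 24.1 CPM with oligo(dT) (log2 fold change 2.94, SE 0.24, edgeR adjusted p = 2.8e-07). For each of these RNAs no oligo(dT) library reached the lowest NSR library. Kcnq1ot1, a very long imprinted antisense RNA, was at 270.3, 127 and 479 CPM with NSR primers and 37.5, 34.5 and 48.8 CPM with oligo(dT), with a wide spread between the NSR libraries (log2 fold change 2.86, SE 0.39, edgeR adjusted p = 8.4e-05). Lncenc1, an ES cell lincRNA, was at 299, 276 and 229 CPM with NSR primers and 166, 195 and 159.8 CPM with oligo(dT) (log2 fold change 0.63, SE 0.15, edgeR adjusted p = 0.012), but its log2 fold change was -0.13 with library totals alone.

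The ribosomal RNAs differed from each other. Rn18s-rs5, an 18S rRNA gene copy, was at 171848, 147812 and 148873 CPM with NSR primers and 1899.8, 1653 and 1762 CPM with oligo(dT) (log2 fold change 6.46, SE 0.08, edgeR adjusted p = 5.8e-18). Mitochondrial 12S rRNA (mt-Rnr1) was at 62501, 65266 and 64930 CPM with NSR primers and 288, 309 and 367 CPM with oligo(dT) (log2 fold change 7.64, SE 0.08, edgeR adjusted p = 5.6e-19). Mitochondrial 16S rRNA (mt-Rnr2), the other product of the same precursor, was at 83187, 84738 and 82188 CPM with NSR primers and 37773, 36368 and 38922 CPM with oligo(dT), a log2 fold change of 1.15 ± 0.03 (edgeR adjusted p = 7.1e-13), and of 0.39 with library totals alone. So oligo(dT) libraries held 5.90 ± 0.190% of their counts in 16S and 0.0503 ± 0.00664% in 12S, while NSR libraries held 7.72 ± 0.235% and 5.95 ± 0.278% (SD, n = 3). The longest run of A is 7 bases in 16S and 5 in 12S, as printed above.

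On the side of oligo(dT) stood short, abundant, polyadenylated mRNAs, first those of the ribosome. All 32 tested small-subunit ribosomal protein genes and 46 of 47 large-subunit genes were lower with NSR primers, against 5.57% of all genes tested. Medians were -2.17 (-2.93 with library totals alone) and -1.68 (-2.43 with library totals alone). Rps29 was at 24.2, 12.0 and 11.5 CPM with NSR primers and 495, 506 and 498 CPM with oligo(dT) (log2 fold change -4.97, SE 0.29, edgeR adjusted p = 3.1e-09). Rpl38 was at 14.5, 8.70 and 11.8 CPM with NSR primers and 329, 301 and 294 CPM with oligo(dT) (log2 fold change -4.72, SE 0.19, edgeR adjusted p = 3.8e-11). These mRNAs are among the shortest of the list, 390 and 371 bases. The longer and more abundant Rpl4 and Rps2, of 1422 and 998 bases, were less far apart: Rpl4 was at 1016, 901 and 947 CPM with NSR primers and 1653, 1703 and 1518 CPM with oligo(dT) (log2 fold change -0.77, SE 0.07, edgeR adjusted p = 5.5e-07), and Rps2 at 562, 568 and 584 CPM with NSR primers and 1306, 1269 and 1227 CPM with oligo(dT) (log2 fold change -1.15, SE 0.09, edgeR adjusted p = 7.6e-08). Rplp2, Rpl24, Rps28, Rpl14, Rps18, Rpl39 and the paralog Rpl22l1 were lower too, with log2 fold changes from -4.64 to -3.63. Among them Rplp2 (964 bases, -4.41) and Rpl14 (935 bases, -4.12) are close to Rps2 in length, so these genes do not follow an order of length. Copies make single values uncertain, since 21.3% of the 31-base words of Rps29 and 52.7% of those of Rpl24 occur in other genes. The pseudogenes named after ribosomal protein genes moved the same way: 16 of 61 tested were lower and 1 higher, and their sum was 1107 ± 62.1 CPM with NSR primers and 3598 ± 122 CPM with oligo(dT).

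Nuclear genes of the respiratory chain and ATP synthase followed, with 62 of 79 lower, none higher and a median of -1.76 (-2.51 with library totals alone). Cox8a, a subunit of cytochrome c oxidase, was at 8.58, 7.77 and 10.2 CPM with NSR primers and 81.1, 107 and 88.1 CPM with oligo(dT) (log2 fold change -3.38, SE 0.27, edgeR adjusted p = 2e-07). Atp5g3, a ring subunit of ATP synthase, was at 35.3, 24.4 and 26.4 CPM with NSR primers and 194, 162 and 161 CPM with oligo(dT) (log2 fold change -2.59, SE 0.23, edgeR adjusted p = 5.4e-07). Neither shares a 31-base word with another gene. The large and abundant Atp5b and Atp5a1, which form the catalytic head of ATP synthase, were lower by less, at -0.68 ± 0.09 and -0.77 ± 0.12. Chchd2, a regulator of cytochrome c oxidase, was at 10.5, 11.5 and 8.23 CPM with NSR primers and 175, 138 and 146 CPM with oligo(dT) (log2 fold change -3.92, SE 0.21, edgeR adjusted p = 1.1e-09). Mitochondrial ribosomal proteins had 18 lower of 77 and none higher, beside 5.57% lower of all genes tested, median -0.93 (-1.69 with library totals alone). Mrpl21 was at 14.4, 7.77 and 10.4 CPM with NSR primers and 47.8, 60.6 and 48.3 CPM with oligo(dT) (log2 fold change -2.27, SE 0.45, edgeR adjusted p = 0.003), and Mrpl57 had a log2 fold change of -2.17 ± 0.46.

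The remaining housekeeping complexes were shifted by less. Proteasome genes had 12 lower of 37 and none higher, beside 5.57% lower of all genes tested, with a median of -0.73 (-1.48 with library totals alone). Psma2, a core subunit, was at 17.9, 34.8 and 30.7 CPM with NSR primers and 139, 83.3 and 96.0 CPM with oligo(dT) (log2 fold change -1.93, SE 0.27, edgeR adjusted p = 0.00012). Chaperonin TRiC genes, which fold actin and tubulin, had 5 lower of 8, median -0.62 (-1.38 with library totals alone). They were Cct4, Cct5, Cct6a, Cct7 and Cct8, between -0.96 and -0.54. SR splicing factors had 7 lower of 12, median -0.59 (-1.35 with library totals alone), with Srsf7 at 95.8, 83.3 and 78.0 CPM with NSR primers and 286, 281 and 218 CPM with oligo(dT) (log2 fold change -1.61, SE 0.15, edgeR adjusted p = 1.4e-06) and Srsf2 at -1.23 ± 0.12. Translation factors were mixed, 17 lower and 2 higher of 36, median -0.48 (-1.24 with library totals alone). Eef1a1, the most abundant of them, was at 4031, 4185 and 3979 CPM with NSR primers and 6745, 6431 and 6403 CPM with oligo(dT) (log2 fold change -0.68, SE 0.04, edgeR adjusted p = 3.1e-09), and the short Eef1b2 fell further, at -1.56 ± 0.11. The 2 higher were Eif4g1, a long scaffold, at 269.6, 254 and 243 CPM with NSR primers and 118, 119.6 and 118 CPM with oligo(dT) (log2 fold change 1.11, SE 0.19, edgeR adjusted p = 0.00086), and Eif4b at 0.43 ± 0.12, which turned to -0.33 with library totals alone and lost its call on leaving out any of the 6 libraries.

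**Figure D3:**
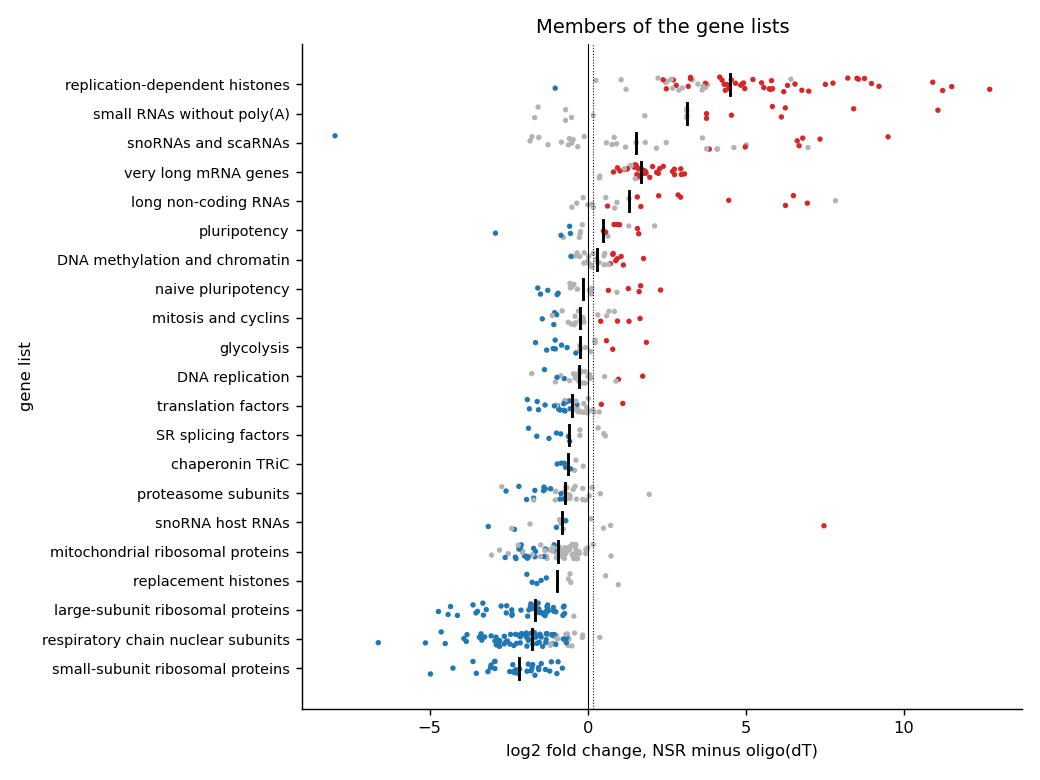
Log2 fold change, NSR minus oligo(dT) (horizontal axis), of each tested member (point) of 21 gene lists (vertical axis), in red where called higher with NSR primers, blue where called lower and grey where not called. The black bar is the list's median, the solid line is 0 and the dotted line is the median of all genes tested (0.16). Histones, small RNAs and very long mRNA genes sit to the right, and ribosomal, respiratory and replacement histone genes to the left.

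Length ordered the protein-coding genes. The geometric mean length of protein-coding transcripts, weighted by counts, was 3239 ± 5.43 bases with NSR primers and 2472 ± 10.5 bases with oligo(dT) (SD, n = 3; exact two-sided permutation p = 0.1, the smallest possible), and 2746 bases in the bulk libraries. By classes of length, the median log2 fold change was -1.31 for 715 genes of 500 to 1000 bases, with 241 lower and 24 higher. It was -0.23 at 2000 to 3000 bases, 0.44 at 4000 to 6000 bases and 1.14 at 8000 to 12000 bases. Above 12000 bases it was 1.71 over 112 genes, with 56 higher and none lower. On library totals alone the crossing point moved up, with -0.32 at 4000 to 6000 bases and 0.96 above 12000, but the order of these classes was kept. Genes up to 500 bases did not follow the order: their median was -0.06, with 48 of 151 lower and 30 higher, the class holding both short histone genes and short ribosomal protein genes.

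The trend was present at each level of abundance. Among the most abundant genes (33.7 CPM or more over the 6 libraries) the median went from -1.67 up to 1000 bases to 1.28 above 8000 bases. Among the least abundant (up to 4.03 CPM) it went from -0.38 to 1.31 at 4000 to 8000 bases and was 0.86 above. Transcripts over 8000 bases took 8.41% (8000 to 12000) and 3.25% (longer) of nuclear protein-coding counts with NSR primers, against 3.32% and 0.740% with oligo(dT). Short ribosomal and respiratory genes are part of these classes, and the parts of length and of function were not tested.

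**Figure D4:**
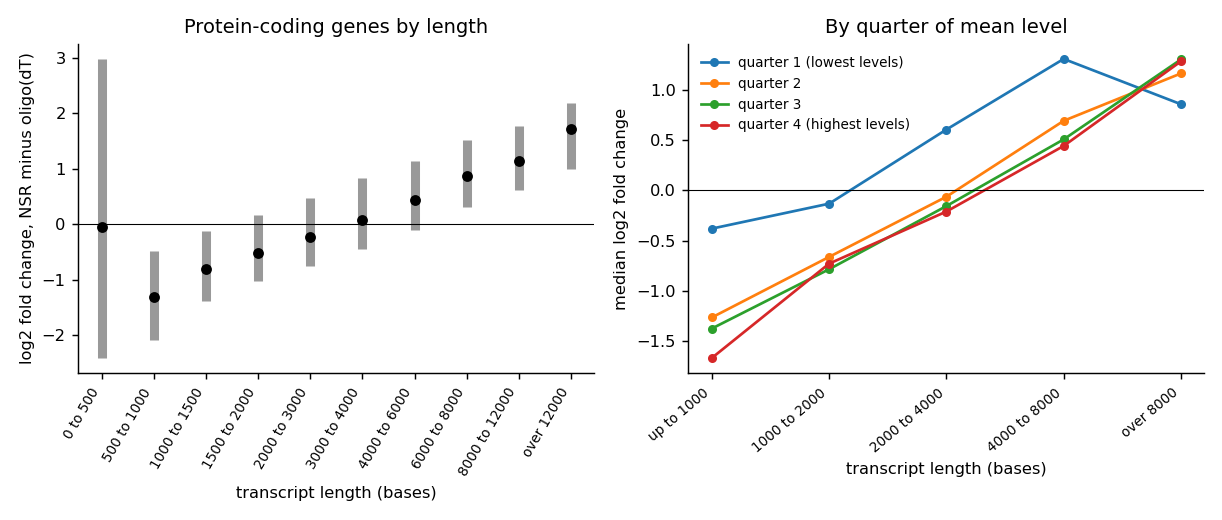
Left, median log2 fold change, NSR minus oligo(dT) (points), with the middle 50% of genes (grey bars), of protein-coding genes by transcript length in bases. Right, the same medians within 4 classes of mean level. From 500 bases up the median rises from -1.31 to 1.71, and in every abundance class the median of the longest genes lies above that of the shortest.

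A list of 40 genes with very long mRNAs showed the same at single genes: 33 were higher with NSR primers, none lower and 7 did not pass, with a median of 1.68 (0.92 with library totals alone). Dst, a giant cytoskeletal linker, was at 835, 779 and 761 CPM with NSR primers and 152, 186 and 169 CPM with oligo(dT) (log2 fold change 2.23, SE 0.17, edgeR adjusted p = 8.5e-08). Srrm2, a scaffold of nuclear speckles, was at 517, 493 and 477 CPM with NSR primers and 64.8, 67.2 and 61.3 CPM with oligo(dT) (log2 fold change 2.94, SE 0.12, edgeR adjusted p = 3.6e-11). Ahnak, a giant scaffold protein gene, was at 617, 511 and 395 CPM with NSR primers and 68.1, 53.7 and 73.8 CPM with oligo(dT) (log2 fold change 2.96, SE 0.25, edgeR adjusted p = 3.3e-07). In none of these did a library of one set reach a library of the other. Usp9x, a deubiquitinase, was at 971, 885 and 848 CPM with NSR primers and 285, 372 and 313 CPM with oligo(dT) (log2 fold change 1.48, SE 0.12, edgeR adjusted p = 2.7e-07). The called changes of the list ran from 0.81 (Ubr4, a ubiquitin ligase) upward.

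Intron-holding transcripts took a larger part of a gene's counts with NSR primers. In 7032 genes with both kinds of entry, retained-intron transcripts held 15.2, 14.8 and 14.9% with NSR primers and 7.85, 8.09 and 7.97% with oligo(dT) of the counts of retained-intron and protein-coding transcripts together. The sets did not overlap (exact two-sided permutation p = 0.1), N6 libraries were at 14.9% and bulk libraries at 11.8 ± 0.387%. As a median over genes the share was 9.12 ± 0.299% with NSR primers and 1.06 ± 0.00788% with oligo(dT) (SD, n = 3). As a share of all counts, retained-intron transcripts overlapped between the sets, 2.88 ± 0.0309% with NSR primers and 2.88 ± 0.0904% with oligo(dT) (exact two-sided permutation p = 0.9). After rRNA, mitochondrial and rRNA-like genes were removed, they held 4.90 ± 0.0256% with NSR primers and 3.89 ± 0.0866% with oligo(dT). Of all 36177 transcript entries tested 6.14% were called. Of 6944 retained-intron entries tested, 331 were higher and 29 lower, against 3.97% higher and 2.16% lower of all entries. The median log2 fold change of the retained-intron entries was 1.77, that of protein-coding entries 0.04. Over all entries tested it was 0.57, and 0.06 over entries with a mean of 10 CPM or more. The filter on low counts took in all 15 RT-RamDA libraries. An entry near 0 with oligo(dT) could therefore pass it through libraries of other primers, and the part of this in the medians was not tested. Transcripts annotated for nonsense-mediated decay, which are spliced, held 12.9 ± 0.552% with NSR primers and 11.1 ± 0.172% with oligo(dT) in 3386 genes (SD, n = 3). As a median over 1837 genes they held 3.65 ± 0.377% with NSR primers and 0 in all 3 oligo(dT) libraries.

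The tested retained-intron entries could be set beside the most abundant coding entry of their gene in 6607 cases from 3502 genes. The retained-intron entry had the larger log2 fold change in 4899 of them, with medians of 1.79 and -0.35. The limit of the low-count filter given above applies to these medians too. The examples that follow were chosen after their values were seen. The Ogt gene, which encodes the O-GlcNAc transferase, has a retained-intron entry of 3087 bases at 82.1, 89.7 and 45.9 CPM with NSR primers and 4.09, 2.09 and 2.90 CPM with oligo(dT) (log2 fold change 4.58 ± 0.40). Its main coding entry was at 109, 107 and 141 CPM with NSR primers and 170.2, 118 and 166 CPM with oligo(dT) and did not pass the test (-0.35 ± 0.23, edgeR adjusted p = 0.36). In Slc2a3, a glucose transporter gene, the retained-intron entry was at 73.3, 75.3 and 86.9 CPM with NSR primers and 4.03, 17.8 and 14.5 CPM with oligo(dT) and the coding entry at 326, 216 and 257 CPM with NSR primers and 385, 357 and 387 CPM with oligo(dT). The reverse was seen too, in ribosomal protein genes and in others. A retained-intron entry of Rps20 was at 7.98, 7.91 and 4.91 CPM with NSR primers and 268, 240.4 and 226 CPM with oligo(dT). Retained-intron entries of Rps16, Hnrnpa2b1 and Trim28 were also lower, at -7.71 ± 0.95, -1.71 ± 0.17 and -8.18 ± 1.24 (log2 fold change ± SE). The main coding entries of these genes were at -1.50 ± 0.21, -0.44 ± 0.18 and -0.32 ± 0.09. Such entries share sequence with the coding transcript, so how counts were divided between them depends on the authors' estimates.

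Genes annotated inside introns of other genes showed a like shift. Among TEC, sense-intronic, antisense, lincRNA, snoRNA and miRNA genes, 651 lay within an intron of a protein-coding gene on its strand without touching its coding transcripts' exons. Of these 118 were higher with NSR primers and 3 lower, median 2.57. Of 1314 outside, 175 were higher and 12 lower, median 1.51. The difference between the placements was not tested. For 557 intronic genes whose host was also tested, the median was 2.78 for the intronic gene and 0.45 for the host. The median of all genes tested was 0.16, and -0.01 over genes with a mean of 10 CPM or more. Genes near 0 with oligo(dT) could pass the low-count filter through libraries of other primers, and the part of this in the medians was not tested. Gm29055, inside Dis3l2, was at 183, 169.7 and 141 CPM with NSR primers and 9.58, 32.2 and 14.9 CPM with oligo(dT). Gm36936, inside Nedd4, was at 33.2, 12.3 and 22.0 CPM with NSR primers and 0.0647, 0 and 0.443 CPM with oligo(dT). Gm42664, inside Ptbp2, was at 26.9, 27 and 15.3 CPM with NSR primers and 0 in every library with oligo(dT). Gm38312, whose run of 25 A is printed above, was the abundant exception, at 1526, 1452 and 1499 CPM with NSR primers and 2041, 1963 and 1997 CPM with oligo(dT) (log2 fold change -0.42 ± 0.05, edgeR adjusted p = 4.6e-05). These 4 were picked after their values were seen. For runs of A, among TEC, sense-intronic, antisense and lincRNA genes of 1 CPM or more, the median was 1.55 for 590 genes whose longest run is at most 6 A, 2.33 for 110 with 11 to 14 and 1.57 for 35 with 20 or more. Among protein-coding genes it was -0.22 for 4920 genes with at most 6 A, 0.30 for 648 with 11 to 14 and 0.27 for 153 with 20 or more, while their median lengths were 2399.5, 4639.5 and 4861 bases. The part of runs of A in these values was not tested.

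Mitochondrial mRNAs, which carry short poly(A) tails, had calls in both directions. Of 13 tested, 7 were higher with NSR primers and 4 lower on the TMM scale, against 3 higher and 7 lower with library totals alone, and the median of 0.40 turned to -0.36 with library totals alone. mt-Co1, a core subunit of cytochrome c oxidase, was at 7452, 7875 and 7794 CPM with NSR primers and 3800.3, 4089.6 and 4152 CPM with oligo(dT) (log2 fold change 0.94, SE 0.04, edgeR adjusted p = 8.4e-11). mt-Nd4l had the largest rise, 1.48 ± 0.14. mt-Nd5 and mt-Nd4, complex I subunits, were at 0.70 ± 0.06 and 0.40 ± 0.06, and turned to -0.06 and -0.36 with library totals alone. Of 15 mitochondrial tRNA genes tested, mt-Tf was higher, at 1.38, 2.37 and 2.79 CPM with NSR primers and 0 in every library with oligo(dT), and mt-Te and mt-Ts1 were lower, at -2.85 ± 0.55 and -9.04 ± 0.61.

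The 4 genes called lower each have a near-identical nuclear copy in the annotation, and for 3 of them most counts went to that copy with NSR primers and to the mitochondrial gene with oligo(dT). mt-Co2 was at 2.49, 41.0 and 2.52 CPM with NSR primers and 2768, 2654 and 2831 CPM with oligo(dT), and its copy Gm28661 at 3297, 3546 and 3458 CPM with NSR primers and 1.23, 0.103 and 0.00627 CPM with oligo(dT). 651 of the 654 31-base words of mt-Co2 occur in Gm28661. Summed, the pair was at 3299, 3587 and 3461 CPM with NSR primers and 2769, 2655 and 2832 CPM with oligo(dT), 1.25-fold higher with NSR primers on the TMM scale but at a log2 ratio of -0.43 with library totals alone, in place of a log2 fold change of -7.48 ± 1.27 for mt-Co2 alone. Counts moved to the copy in the same way for mt-Atp6 and mt-Co3, while for mt-Nd3 the copy held most counts with both primers. The pair of mt-Atp6 and Gm10925 was at 2589 ± 49.3 CPM with NSR primers and 3393 ± 37.5 CPM with oligo(dT), that of mt-Co3 and Gm28437 at 2942 ± 80.3 CPM with NSR primers and 3269.6 ± 119.7 CPM with oligo(dT), and that of mt-Nd3 and Gm28438 at 584 ± 14.3 CPM with NSR primers and 446 ± 36.3 CPM with oligo(dT) (SD, n = 3), the last at a log2 ratio of 0.39 that turned to -0.37 with library totals alone. With the 4 copies included the mitochondrial mRNAs summed to 29319 ± 547 CPM with NSR primers and 21921 ± 499 CPM with oligo(dT), and without them to 20607 ± 793 CPM with NSR primers and 21504 ± 483 CPM with oligo(dT). With library totals alone the log2 ratio of the first sum turned from 0.42 to -0.34. Values of these 8 genes taken singly are therefore uncertain.

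**Figure D5:**
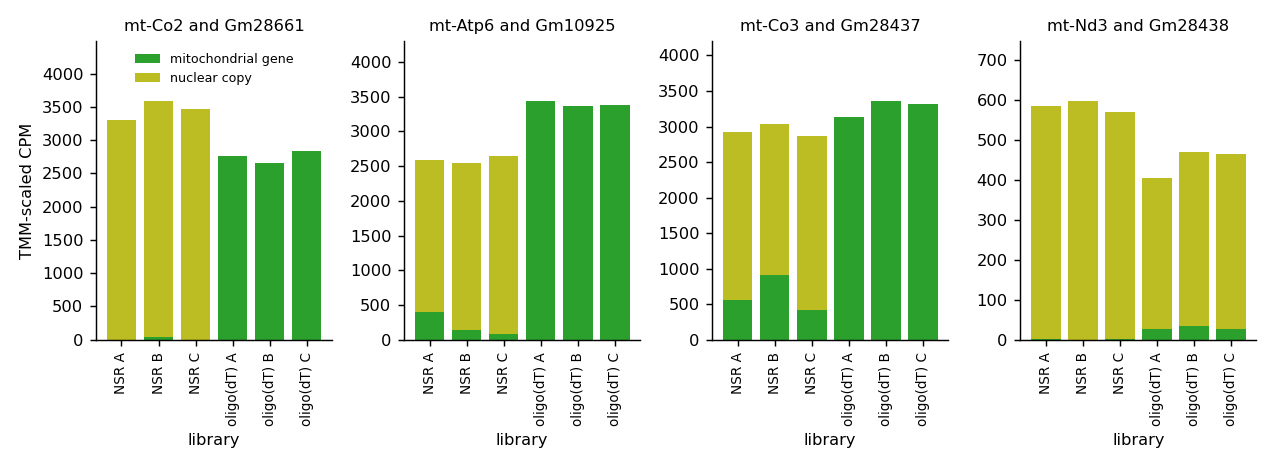
Level (vertical axis, TMM-scaled CPM) of 4 mitochondrial mRNA genes (green) stacked with their near-identical nuclear copies (olive) in the 3 NSR and 3 oligo(dT) libraries. For mt-Co2, mt-Atp6 and mt-Co3 the bars are mostly olive with NSR primers and green with oligo(dT), and the bar heights differ far less than the colours. For mt-Nd3 the bars are mostly olive in all 6 libraries.

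Genes that identify ES cells were measured with both primers, some higher with each. Of 19 pluripotency genes tested, 7 were higher with NSR primers and 4 lower, beside 7.72% and 5.57% of all genes tested. That split became 2 higher and 8 lower with library totals alone. Pou5f1, which encodes Oct4, was at 195, 195 and 188 CPM with NSR primers and 96.9, 133 and 94.3 CPM with oligo(dT) (log2 fold change 0.83, SE 0.15, edgeR adjusted p = 0.0014; 0.07 with library totals alone). Nanog was at 245, 237 and 219 CPM with NSR primers and 245, 259 and 283 CPM with oligo(dT) and Sox2 at 266, 364 and 283 CPM with NSR primers and 367, 346 and 367 CPM with oligo(dT), and neither passed the test (-0.17 ± 0.14 and -0.24 ± 0.14). Dppa5a, a short RNA-binding protein gene of pluripotent cells, was at 134, 124 and 119 CPM with NSR primers and 966, 978 and 897 CPM with oligo(dT) (log2 fold change -2.91, SE 0.11, edgeR adjusted p = 2.3e-11), with 57.2% of its 31-base words in other genes. Trim71, an RNA-binding ubiquitin ligase with a long mRNA, was higher, at 1.57 ± 0.18. Tdgf1, Dppa4 and Trim28, the last a co-repressor of retroelements, were lower, at -0.57 ± 0.13, -0.85 ± 0.25 and -0.55 ± 0.08, the call of Dppa4 being lost on leaving out any of 4 libraries. The median of the list was 0.50 and turned to -0.26 with library totals alone.

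Of 20 naive pluripotency genes 5 were higher and 5 lower, beside 7.72% and 5.57% of all genes tested. With library totals alone 4 were higher and 12 lower. Tet1, a dioxygenase that oxidises 5-methylcytosine, was at 995, 1060.3 and 915 CPM with NSR primers and 208, 195 and 199.6 CPM with oligo(dT) (log2 fold change 2.30, SE 0.10, edgeR adjusted p = 4.6e-11). Tet2 and Tfcp2l1 were higher too, at 1.67 ± 0.18 and 1.63 ± 0.18, and so was Klf5, at 245, 249 and 252 CPM with NSR primers and 105, 81.4 and 121 CPM with oligo(dT) (log2 fold change 1.28, SE 0.15, edgeR adjusted p = 1.5e-05). The related factors Klf2 and Klf4 were lower, Klf4 at 58.1, 68.4 and 67.4 CPM with NSR primers and 132, 265 and 184 CPM with oligo(dT) (log2 fold change -1.58, SE 0.33, edgeR adjusted p = 0.0037) and Klf2 at -1.26 ± 0.22. Zfp42 (Rex1) was at 292, 255 and 244 CPM with NSR primers and 509, 534 and 504 CPM with oligo(dT) (log2 fold change -0.97, SE 0.11, edgeR adjusted p = 1.2e-05). Spp1 and Tcl1 were lower, at -1.49 ± 0.12 and -0.93 ± 0.22, and Tbx3 was higher, at 0.65 ± 0.19, turning to -0.10 with library totals alone and losing its call without any of 4 libraries. The annotated lengths of Tet1, Tet2 and Tfcp2l1 are 14369, 9021 and 9269 bases, and those of Spp1, Tcl1 and Zfp42 1410, 1398 and 1800 bases, while Klf5 (1721 bases) and Klf4 (3029 bases) go against that order.

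Cell cycle and glycolysis genes had calls in both directions on the TMM scale, and most called chromatin genes were higher with NSR primers. With library totals alone most calls in these lists were lower with NSR primers. They were 1 higher and 8 lower of 28 in chromatin and 1 higher and 18 lower of 27 in DNA replication. In mitosis they were 1 higher and 16 lower of 25, and in glycolysis 0 higher and 12 lower of 18. Of the 28 genes of DNA methylation and chromatin, 8 were higher on the TMM scale and 1, Mtf2, lower, and the median of 0.29 turned to -0.47 with library totals alone. Nipbl, the cohesin loader, was at 185, 167 and 214 CPM with NSR primers and 88.4, 32.4 and 45.6 CPM with oligo(dT) (log2 fold change 1.76, SE 0.31, edgeR adjusted p = 0.001), and Kdm5b, an H3K4 demethylase, at 423, 464 and 426 CPM with NSR primers and 258, 261 and 233 CPM with oligo(dT) (log2 fold change 0.80, SE 0.15, edgeR adjusted p = 0.0013). The DNA methyltransferase genes Dnmt1, Dnmt3a and Dnmt3b did not pass, at 0.54 ± 0.19, -0.25 ± 0.51 and 0.18 ± 0.33. On the TMM scale 7.72% of all genes tested were called higher and 5.57% lower, to be set beside the counts of each list here. Of 27 DNA replication genes 2 were higher, Pola1 and Pole, catalytic polymerase subunits, at 1.74 ± 0.27 and 0.97 ± 0.29. The shorter Pcna, Rpa2 and Rrm2 were lower, at -0.97 ± 0.20, -1.37 ± 0.40 and -0.74 ± 0.20. Of 25 mitosis genes Cenpf, Cenpe, Mki67 and Top2a were higher and Cks2, Ube2c, Ccne1 and Ccnd3 lower. Mki67, a proliferation marker, was at 401, 388 and 409 CPM with NSR primers and 264, 187 and 173 CPM with oligo(dT) (log2 fold change 0.94, SE 0.23, edgeR adjusted p = 0.012), and Cks2, a cyclin-dependent kinase subunit, at 28.8, 47.4 and 24.7 CPM with NSR primers and 83.7, 111 and 78.5 CPM with oligo(dT) (log2 fold change -1.44, SE 0.28, edgeR adjusted p = 0.0024). Top2a, at 0.41 ± 0.11, turned to -0.35 with library totals alone, and the calls of Top2a, Cenpe, Mki67, Ccne1 and Ube2c were lost on leaving out some single libraries, as were those of Mtf2, Pole, Rpa2 and Rrm2.

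Of 18 glycolysis genes 3 were higher (Hk1, Hk2 and Pfkp) and 8 lower, beside 7.72% and 5.57% of all genes tested. Pgam1, phosphoglycerate mutase, was at 168, 168 and 178 CPM with NSR primers and 534, 509.7 and 569 CPM with oligo(dT) (log2 fold change -1.65, SE 0.12, edgeR adjusted p = 5.3e-08), and Aldoa, aldolase, at 284, 281 and 317 CPM with NSR primers and 547, 641 and 603 CPM with oligo(dT) (log2 fold change -1.02, SE 0.11, edgeR adjusted p = 5.5e-06). Hk1 was at 45.1, 18.4 and 30.4 CPM with NSR primers and 15, 4.0 and 6.96 CPM with oligo(dT) (log2 fold change 1.85, SE 0.53, edgeR adjusted p = 0.03), and Pfkp, at 0.59 ± 0.16, turned to -0.17 with library totals alone. The calls of Hk1 and Pfkp were lost on leaving out any of 4 libraries. The common reference genes did not pass the test on the TMM scale: Actb was at 739, 867 and 884 CPM with NSR primers and 822, 841 and 712 CPM with oligo(dT) (log2 fold change 0.07, SE 0.09, edgeR adjusted p = 0.7), and Gapdh at 1145, 1245 and 1260.0 CPM with NSR primers and 1344, 1551 and 1448 CPM with oligo(dT) (log2 fold change -0.25, SE 0.08, edgeR adjusted p = 0.06). With library totals alone both were called lower with NSR primers, Actb at -0.69 (edgeR adjusted p = 6.7e-05) and Gapdh at -1.01 (edgeR adjusted p = 3.1e-07).

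Markers of other cell types are given by their counts of calls, beside 13.3% of all genes tested. Both primer sets were used on diluted total RNA of the same ES cell line, so these values compare primers and do not measure numbers of cells. Of 16 primitive endoderm markers, 12 were tested and 3 were higher with NSR primers: Gata6, Lama1 and Lamc1, the last turning to -0.14 with library totals alone. Gata6 was at 133, 90.3 and 107 CPM with NSR primers and 29.0, 49.9 and 35.3 CPM with oligo(dT) (log2 fold change 1.53, SE 0.23, edgeR adjusted p = 0.00022), and the transgene of this line may add to it, which was not tested. Summed over the 12 tested, the list was at 491 to 663 CPM with oligo(dT) and 732 to 1017 CPM with NSR primers, and its part in the other results was not tested. Pdgfra, a surface marker of that lineage, was at 0.395 CPM or less in all 6 libraries. Of 8 fibroblast markers 3 were tested, and these summed to 622 to 798 CPM with oligo(dT) and 896 to 1163 CPM with NSR primers. Most of that was Fn1 alone, at 536 ± 107 CPM with oligo(dT) and 884 ± 149 CPM with NSR primers (SD, n = 3 each). Fn1 was higher at 0.72 ± 0.14 (-0.04 with library totals alone) and Vim lower at -0.55 ± 0.16, which did not pass without NSR library A, NSR library C or oligo(dT) library C. Zic2, at 4.55 ± 1.19, was the 1 neuroectoderm marker called, of 5 tested, and did not pass without NSR library A. Of 4 trophectoderm markers 3 were tested and none was called, and none of the 3 markers of 2-cell-like cells passed the filter on low counts.

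More genes were seen with NSR primers. With every library thinned to 8025565 counts, 18444 ± 376 genes had a count with NSR primers and 16007 ± 265 with oligo(dT) (SD, n = 3; exact two-sided permutation p = 0.1). At 5 counts or more the numbers were 14796 ± 80.1 and 13474 ± 111. With rRNA, mitochondrial and rRNA-like genes removed before thinning, 658 genes were seen in all 3 NSR libraries and no oligo(dT) library, and 128 the reverse. Of the first, 198 were protein-coding, 92 TEC, 74 lincRNA and 59 antisense. Of the second, 76 were processed pseudogenes and 29 protein-coding. Processed pseudogenes were a class with more genes seen by oligo(dT), 1408, 1404 and 1399 against 1316, 1327 and 1274. The libraries of a set were also somewhat closer to each other with NSR primers: over 7226 genes of 10 CPM or more, the median coefficient of variation was 0.274 against 0.331, a description with no test.

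A few genes were limited to one kind of primer. Tnf, the gene of tumour necrosis factor (chr17:35199381-35202007, - strand), had 741, 679 and 659 estimated counts in the NSR libraries and 530, 240 and 335 in those with NSR and oligo(dT) primers. It had 0 in the other 12 libraries, the N6 and bulk libraries included. In CPM it was at least 489-fold higher with NSR primers than with oligo(dT), on the floor of 3 counts per library, and none of its 1639 31-base words occurs in another gene of the annotation. That pattern was shared by a single further gene. Igkv1-110, an immunoglobulin light chain segment, had 85.0, 94.0 and 61.0 counts in the NSR libraries, 115, 72.0 and 88.6 with NSR and oligo(dT), and 0 in the other 12. Of its 31-base words 63.6% occur in other genes, most of them in Igkv1-117. The reads would be needed to see what the counts of Tnf and Igkv1-110 are, and their origin was not tested. The reverse case was Gm4604, a processed pseudogene with 227, 275 and 315 counts with oligo(dT), counts in all libraries that hold oligo(dT) and in the bulk libraries, and 0 in all 6 libraries primed by NSR or N6 alone. No other gene had 10 counts or more in every library of such a group and 0 in all others, and the search was made after the values were seen.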

How the data were processed

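Reverse transcription primers were compared on RNA-seq libraries from mouse ES cell total RNA. The authors deposited a table of values per transcript entry, taken here as estimated counts because they are not whole numbers and sum to a different total in each library. Reads were converted with bcl2fastq 2.16.0.10 and the build is mm10, per the submitters' processing notes; for the aligner, the quantifier and the strand setting, nothing is given in the sources used here. All 18 value columns were mapped by title and 0 were left out. Transcript entries were summed per gene identifier (47643 genes; 118 symbols are shared by 244 identifiers, kept apart), rounded to whole numbers, and 92 ERCC spike-in entries were left out.

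Genes and transcript entries were tested with edgeR 4.0.16 (R 4.3.3) by its quasi-likelihood test after filterByExpr and TMM scaling, over the 15 RT-RamDA libraries with the primer set as the only term, for the contrast NSR minus oligo(dT), with Benjamini-Hochberg adjustment over all features tested and a threshold of 0.05. The residual degrees of freedom were 10. The SE of a log2 fold change was derived from the test, as its absolute value divided by the square root of the F statistic. Shares and other single values per library were compared by exact two-sided permutation tests, whose smallest p is 0.1. Fold changes against a set at 0 were bounded with a floor of 3 counts per library, which covers counting error only. PCR copies were not separated from molecules in counts without molecular identifiers. Sequences, introns and shared words of 31 bases were taken from GENCODE vM21. Python 3.11.15 was used for the rest, and the fits were tested on simulated data.

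The gene lists, members and tests were chosen with earlier results of these data known. Named genes are up to 12 higher and 12 lower by fold change among called genes of 32 CPM or more whose groups do not overlap, without predicted genes and pseudogenes, with the 2 most abundant and the 2 of smallest p from each of 30 lists, a few reference genes, and the called members of a list with 5 or fewer calls in a direction. Genes outside that rule were named after their values were seen: Ahnak, Ubr4, Kcnq1ot1, Terc, Rnu1a1, Rn7s2, Lars2, Dnmt1, Dnmt3a, Dnmt3b, Pdgfra, mt-Nd4, mt-Nd4l, mt-Nd5, Tnf, Igkv1-110, the predicted Gm genes and the examples so marked. Alternatives were library totals, totals without rRNA and mitochondrial genes, DESeq2 1.42.0 size factors and its Wald test, other filters on low counts, the 6 libraries only, a replicate block and leaving out each library.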

Additional observations from a re-analysis of the deposited data

Results flagged for a closer look

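ERCC spike-in RNAs, polyadenylated transcripts added to the RNA and left out of the comparisons, gave a signal. They held a mean of 0.47% of all counts in the NSR libraries (0.459 to 0.488%) and 0.371% in the oligo(dT) libraries (0.355 to 0.385%). The share was 0.373% with N6, 0.378% with N6 and oligo(dT), 0.516% with NSR and oligo(dT), and 1.01% in the bulk libraries.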

How the results depend on the processing

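The counts of genes called moved most with the scale and the fit. With library totals alone 3434 genes were called, 713 higher and 2721 lower; with totals without rRNA and mitochondrial genes 1725 were lower; with the 6 libraries only 1140 were called, 555 of them higher; with DESeq2's Wald test 3357 were called, 2117 of them higher. Of transcript entries, the 6 libraries only called 1188, 631 of them higher, and library totals alone 1912 lower. Leaving out a library gave 1497 to 1703 genes, 848 to 947 higher and 624 to 762 lower, and 1438 to 1622 transcript entries, 884 to 1020 higher. An arm left with fewer libraries shared the spread of the other primer sets. The cause of these shifts was not tested, except that leaving out libraries reduces the samples. The retained-intron share of all counts differed between the sets by 0.0068 percentage points and turned to -0.330 with the biotype of each gene's most abundant transcript; without single libraries it ran from -0.0354 to 0.0545, with -0.00933 without NSR library C and -0.0354 without oligo(dT) library A. The median coefficient of variation was lower with NSR primers by a difference of -0.0568, which was -0.0140 at 100 CPM or more and -0.0352 to -0.0455 without single libraries.

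Of 145 named genes, library totals alone turned 7, to -0.33 (Eif4b), -0.037 (Fn1), -0.14 (Lamc1), -0.13 (Lncenc1), -0.17 (Pfkp), -0.10 (Tbx3) and -0.35 (Top2a), and ended 10 calls. Totals without rRNA and mitochondrial genes turned 1, Top2a, to -0.019, and ended 13 calls while 7 were gained. The 6 libraries only ended 15 calls and no filter on low counts 8. List medians turned with library totals alone for pluripotency (-0.26), DNA methylation and chromatin (-0.47) and mitochondrial mRNAs (-0.36), and with totals without rRNA and mitochondrial genes for the last pair (-0.14 and -0.031). Leaving out 1 library ended 9 to 18 calls, of 25 genes in all: Ccne1, Cct6a, Cenpe, Dppa4, Eif4b, Epb41l4aos, Hk1, Lamc1, Lncenc1, Mki67, Mtf2, Pfkp, Pole, Rpa2, Rrm2, Snhg1, Snhg6, Snord47, Srsf6, Tbx3, Tcl1, Top2a, Ube2c, Vim and Zic2. Ribosomal protein, respiratory, histone, small RNA and very long mRNA genes among the named genes are not in that list. The letters A to C do not pair the libraries: same-letter deviations correlated by -0.0150, 0.0193 and -0.00343 over 7181 genes. With the letter as a replicate block 1805 genes were called (1030 higher and 775 lower) and 1632 transcript entries (996 and 636), and of the named genes 2 calls were lost and 1 was gained. Depth limits the genes at 0 in one set, for which bounds are given.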
